A study of Mus musculus with 24 samples.

Results

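DNA methylation was examined at the 5 autosomal steroid hormone receptor genes of the mouse, Esr1, Esr2, Pgr, Nr3c1 and Nr3c2, in liver, brain and heart. The genes were chosen by name, and their members are the 100 bp tiles of the reduced representation bisulphite sequencing (RRBS) tables that lie between 5000 bp upstream of a gene's first RefSeq transcription start and its last base on mm10. Of the 819713, 942643 and 930358 tiles in the liver, brain and heart tables, 320, 357 and 345 were members. All 3 tables shared 758685 tiles, and 291 of them were members, which carried the comparisons. The androgen receptor gene is X-linked, the tables hold only the 19 autosomes, and it was not analysed here.

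All libraries came from C57Bl/6J mice aged 24 weeks, with no transgene or treatment named. There were 12 liver libraries (6 male, 6 female), 6 brain libraries and 6 heart libraries (3 male and 3 female each), and several mice gave more than 1 tissue. DNA came from the left liver lobe, a coronal slice of the rostral brain and the apex of the heart, so each library averaged over all cell types of a tissue piece. Since the numbering of the columns is tied to neither mouse nor gender, male and female levels were not compared and libraries were grouped by tissue only.

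Steroid hormone receptors are transcription factors that are switched on by binding their hormone. Esr1 and Esr2 encode the oestrogen receptors alpha and beta, Pgr the progesterone receptor, Nr3c1 the glucocorticoid receptor and Nr3c2 the mineralocorticoid receptor. Glucocorticoid receptor is made in nearly every cell type, whereas Esr1 transcripts begin at alternative first exons that are used differently between tissues. Dense clusters of CpGs at promoters are usually unmethylated, and most other CpGs of the genome are methylated.

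Over all shared tiles the mean methylation level was 65.3% in liver (libraries 64.8 to 66.1%), 65.2% in brain (63.7 to 66.4%) and 59.8% in heart (59.6 to 60.3%). The median tile was 3.5 percentage points higher in liver than in heart, 3.0 points higher in brain than in heart and 0.28 points higher in liver than in brain, and differences against heart are to be read relative to that shift. Promoters of marker genes were checked against the tissue of each table. Both measured liver markers (of 6) and all 3 measured heart markers (of 6) had their lowest promoter level in their own tissue, as had 4 of 6 brain markers. Some margins were small. Myl7 was at 41.2% in heart against 43.4% in liver (limma, adjusted p = 0.52). Of the brain markers, only Camk2a was at least 10 points lower in brain than in both other tissues. Mbp, a myelin gene, and Grin1, a neuronal glutamate receptor gene, were the brain markers that did not, with 22.8% and 22.3% in brain against 19.0% and 20.6% in heart.

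Averaged over the promoters at all RefSeq starts, Esr1 stood apart from the other genes in each tissue. A promoter was defined as 1000 bp before to 500 bp after any RefSeq start, and a body as the rest of the gene. The Esr1 promoter mean was 39.2% ± 2.45 (SD, n = 12) in liver, 39.5% ± 2.32 (n = 6) in brain and 31.3% ± 1.23 (n = 6) in heart. In liver it joined 3.05% and 12.5% at the 2 curated start regions with 86.5% and 74.6% at starts of predicted transcripts only. The promoter means of the other genes stayed below 7% in each tissue. Those of Nr3c1 were 6.46%, 5.83% and 5.99%, those of Esr2 4.65%, 3.71% and 2.80%, those of Pgr 2.42%, 1.83% and 1.5% and those of Nr3c2 1.62%, 1.16% and 1.34% in liver, brain and heart. No tissue pair changed the order of Esr1, Nr3c1 and Esr2 from highest to lowest, and the libraries of Pgr and Nr3c2 overlapped in liver. The place of Nr3c1 rests on 1 distal tile at 81.9%, 78.9% and 80.3% in liver, brain and heart. Its other 14 promoter tiles averaged 1.07%, 0.61% and 0.68%.

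None of the 5 promoter means met the call used for genes (limma, Benjamini-Hochberg adjusted p under 0.05 over all genes, and a difference of at least 10 points) in any pair. Over the 21631 promoters measured, that call was met by 13.8% for liver against brain, 15.7% for liver against heart and 14.2% for brain against heart. At an unadjusted p under 0.05, 1, 2 and 1 of the 5 promoters differed in these pairs, against 51.8%, 52.4% and 41.6% of all promoters. Esr1 came closest, 7.91 ± 1.07 points (SE) higher in liver than in heart (limma, adjusted p = 1.27e-06) and 8.28 ± 1.23 points higher in brain than in heart (adjusted p = 8.43e-06). Its liver and brain means differed by 0.37 points (adjusted p = 0.80), but this average joins promoters that differed in opposite directions. With the 2 starts of the curated RefSeq transcripts alone, the Esr1 promoter mean was 13.1 points lower in liver than in brain (limma, adjusted p = 1.04e-09) and was called. With those starts it was also lower in liver than in heart, the reverse of the direction over all starts, and this was not called.

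Gene bodies lay higher and again differed between genes. These means depend on the tiles covered, since bodies held unequal parts of unmethylated sequence outside the promoter windows. An example is the coding first-exon tiles of Pgr, at 1.41 to 3.46% in liver. Another is the Nr3c2 body tiles from chr8:76899101 to 76900500, at 0.54 to 2.29% in liver. They lie ahead of the curated start and overlap another gene, Gm10649. Body means in liver, brain and heart were 81.6%, 83.5% and 79.5% for Esr2, 77.0%, 77.7% and 69.0% for Esr1, 70.4%, 71.4% and 65.1% for Nr3c2, 42.0%, 50.7% and 48.6% for Nr3c1, and 26.9%, 28.1% and 22.1% for Pgr. None of the 5 met the call in any pair, against 19.1%, 27.8% and 23.7% of the 25967 bodies measured for liver against brain, liver against heart and brain against heart. At an unadjusted p under 0.05, 2, 5 and 4 of the 5 bodies differed in these pairs by limma, against 68.4%, 80.7% and 70.9% of all bodies. Nr3c1 was the one gene whose body was lower in liver than in heart, by 6.57 ± 1.57 points (limma, adjusted p = 0.00057), while the median body was 5.32 points higher in liver. With that shift subtracted, its difference was -11.9 points (adjusted p = 4.35e-07) and was called.

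**Figure D1:**
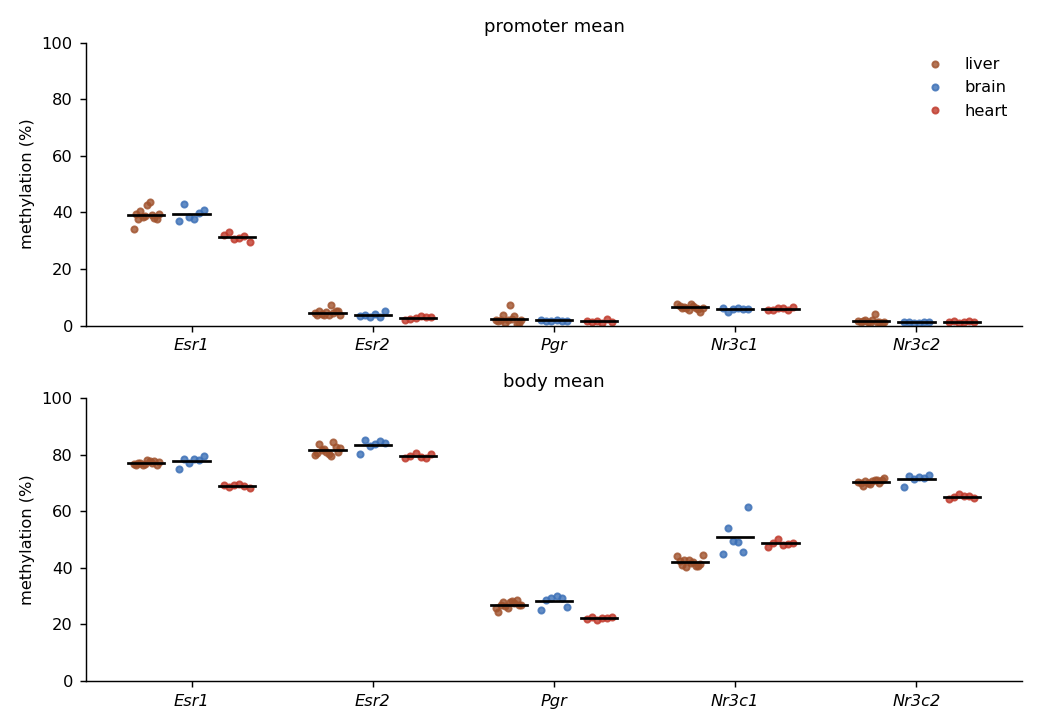
Promoter means (top) and body means (bottom) of the 5 receptor genes, methylation in percent on the vertical axis, one point per library (12 liver, 6 brain, 6 heart) and a bar at the tissue mean. Esr1 is the one promoter with tissue means above 7%, and the mean of the Nr3c1 body is lowest in liver, with 1 brain library at 61.6%.

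Single tiles showed where tissues differed. A tile was called at an adjusted p under 0.05 (limma, over all 758685 tiles) and a difference of at least 25 points. For liver against brain 32 of the 291 member tiles were called, 11 higher in liver and 21 higher in brain, a share of 11% against 9.8% of all tiles (5.04% higher in liver, 4.76% higher in brain). For liver against heart 35 were called, 23 higher in liver and 12 higher in heart, 12% against 10.8% of all tiles (7.94% higher in liver, 2.87% higher in heart). For brain against heart 21 were called, 20 of them higher in brain, 7.2% against 9.47% of all tiles (7.72% higher in brain, 1.76% higher in heart). These shares lay near those of all tiles.

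The called tiles were unevenly spread among the genes. In at least 1 pair 54 of the 291 member tiles (18.6%) were called, against 18.9% of all tiles. They were 34 of 107 in Esr1, 15 of 97 in Nr3c2, 3 of 37 in Esr2, 2 of 28 in Nr3c1 and 0 of 22 in Pgr. In Esr1 23 tiles (21.5%) were called for liver against brain, 22 (20.6%) for liver against heart and 13 (12.1%) for brain against heart. Introns held 48 of the 54, and 201 of the 291 member tiles. Among promoter tiles only Esr1 had calls, 4, 3 and 2 of its 13 for liver against brain, liver against heart and brain against heart. None of the 39 promoter tiles of the other genes was called by limma in any pair, and 4, 6 and 0 had an unadjusted p under 0.05, against 45.8%, 52.4% and 48.9% of all tiles. The 3 pairs share libraries, so they are not independent of each other.

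**Figure D2:**
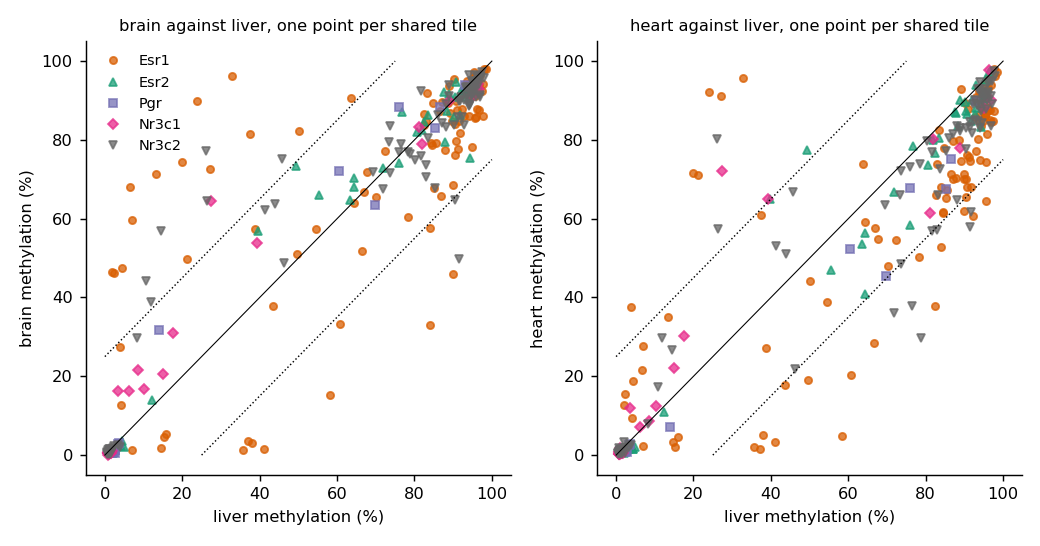
Mean level of each of the 291 shared tiles in brain (left) and heart (right) against liver, in percent, with one symbol per gene, the line of equality and dotted lines at 25 points of difference. Tiles far from the line are mostly from Esr1 and Nr3c2, and Esr1 tiles lie on both sides.

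Sequences of Esr1 are shown first, since the gene turned in opposite directions at its 2 curated start regions. The distal tiles called for liver against brain begin at chr10:4612301, after the printed promoter, and no tile of the proximal promoter was called. They are RefSeq promoters and tiles on GRCm38.p6 (mm10), plus strand, in lower case with each CpG in capitals. The distal promoter holds 6 CpGs in 300 bases, the proximal promoter 12. The tile 9.26 kb into the gene and the tile 12.96 kb into it are intronic, and the tile at 100.70 kb lies in a coding exon and holds 11 CpGs.
Esr1 distal promoter, chr10:4611739-4612038: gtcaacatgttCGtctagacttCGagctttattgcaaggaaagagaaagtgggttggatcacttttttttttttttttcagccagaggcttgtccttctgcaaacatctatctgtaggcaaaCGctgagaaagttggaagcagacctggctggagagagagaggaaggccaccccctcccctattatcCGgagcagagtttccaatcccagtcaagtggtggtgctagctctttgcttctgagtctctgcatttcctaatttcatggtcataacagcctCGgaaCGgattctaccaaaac
Esr1 proximal promoter, chr10:4709908-4710207: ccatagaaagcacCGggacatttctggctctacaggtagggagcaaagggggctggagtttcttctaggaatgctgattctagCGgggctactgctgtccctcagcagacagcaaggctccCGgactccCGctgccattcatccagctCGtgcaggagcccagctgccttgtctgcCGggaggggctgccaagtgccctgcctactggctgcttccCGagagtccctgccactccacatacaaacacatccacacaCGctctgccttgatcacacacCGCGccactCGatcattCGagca
Esr1 intron tile, chr10:4621201-4621300: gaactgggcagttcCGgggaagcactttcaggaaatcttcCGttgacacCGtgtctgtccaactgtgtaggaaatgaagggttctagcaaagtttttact
Esr1 intron tile, chr10:4624901-4625000: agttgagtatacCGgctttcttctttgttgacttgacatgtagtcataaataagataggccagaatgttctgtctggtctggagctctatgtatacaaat
Esr1 coding exon tile, chr10:4712601-4712700: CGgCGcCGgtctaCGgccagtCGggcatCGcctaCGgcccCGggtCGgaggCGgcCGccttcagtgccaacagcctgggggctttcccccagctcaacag

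Around the distal promoter of Esr1 (start at chr10:4611989, plus strand) liver was nearly unmethylated and brain was not. The mean of the 4 tiles there ran from 1.23% over a median of 2.95% to 5.73% in the 12 liver libraries, from 25.2% over 34.0% to 44.0% in brain and from 17.1% over 18.7% to 20.8% in heart. The 3 tissues did not overlap, in the order liver, heart, brain. At chr10:4612301-4612400, the liver libraries lay at 0 to 7.0% with a median of 0, the brain libraries at 31.3 to 58.0% (median 48.0) and the heart libraries at 5.9 to 19.0% (median 13.2). Liver was lower than brain by 44.4 ± 2.98 points (SE; limma, adjusted p = 1.42e-11), and heart was lower than brain by 33.6 ± 3.44 points (adjusted p = 4.59e-08). The tile just before the start, chr10:4611701-4611800, had another order, with 3.8% in liver, 27.3% in brain and 37.5% in heart, and liver was 33.6 ± 2.29 points below heart (limma, adjusted p = 2.05e-11).

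Liver was also low at the tiles measured in the first intron. These were not continuous, with no member tile between chr10:4612500 and 4621001 or between chr10:4621700 and 4624701. All 11 neighbouring shared tiles from chr10:4612301 to 4625000 were called lower in liver than in brain, with a mean of 16.2% ± 1.78 (SD, n = 12) in liver and 66.3% ± 7.25 (n = 6) in brain, and 49.3% ± 1.77 (n = 6) in heart. Heart changed sides along this stretch. In the first part, 9.06 to 9.36 kb after the start, heart stood at 18.9 to 35%, nearer to liver than to brain. From 9.56 kb to 12.96 kb it stood at 71.1 to 95.6%, and its 4 tiles there averaged 87.5% ± 2.61, against 77.1% ± 9.13 in brain and 26.3% ± 3.62 in liver.

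The tile with the largest liver difference in Esr1 was chr10:4624901-4625000, printed above with its single CpG. Its liver libraries ran from 16.1% over 23.1% to 32.8%, its brain libraries from 83.8% over 89.7% to 97.6% and its heart libraries from 83.3% over 93.3% to 96.3%. No liver library came near the others. Liver was lower by 66.0 ± 2.55 points than brain (limma, adjusted p = 6.82e-16) and by 68.2 ± 2.55 points than heart (adjusted p = 5.57e-16), whereas brain and heart differed by 2.2 points (adjusted p = 0.61). For brain against heart the largest difference of the gene was at chr10:4621201-4621300, where brain libraries ran from 62.2% over 66.0% to 75.3%, heart libraries from 18.3% over 20.9% to 26.9% and liver libraries from 4.0% over 6.7% to 9.6%. Brain exceeded heart there by 46.4 ± 1.90 points (limma, adjusted p = 2.87e-14).

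At the proximal promoter (curated start at chr10:4710158) the order was the reverse. The mean of its 3 tiles was 12.5% ± 3.04 in liver, with libraries from 7.87 to 18.5%, against 2.81% ± 1.17 in brain and 3.32% ± 0.98 in heart, and liver did not overlap either. None of these tiles reached 25 points. At chr10:4710101-4710200 liver was 12.9 ± 1.36 points higher than brain (limma, adjusted p = 3.23e-08) and 11.4 ± 1.36 points higher than heart (adjusted p = 2.16e-07). The Esr1 promoter tile with the lowest level averaged over the 3 tissues, chr10:4710001-4710100, was at 6.92% in liver, 1.42% in brain and 2.18% in heart. The one with the highest such average, chr10:4711201-4711300, lay further on, at 95.4%, 95.1% and 91.7%.

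Liver methylation was higher still around the exon that follows, which holds the first coding bases. Ahead of that exon, chr10:4712101-4712200 is intronic in the curated transcripts and exonic only in a predicted one. The 5 neighbouring tiles from chr10:4712101 to 4712900 were all called higher in liver against brain and against heart. Their mean ran from 30.1% over 38.2% to 64.6% in liver, from 4.0% over 4.76% to 6.46% in brain and from 2.96% over 3.39% to 3.80% in heart. Every liver library lay above every other library. In the largest of these differences, at chr10:4712101-4712200, liver exceeded brain by 42.9 ± 3.32 points (limma, adjusted p = 1.79e-10) and heart by 53.4 ± 3.32 points (adjusted p = 4.15e-12).

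The spread among livers was wide over these 5 tiles. The SD of the 5-tile mean was 10.6 points in liver against 0.97 in brain and 0.35 in heart. The 4 highest liver libraries stood at 49.2%, 50%, 56.1% and 64.6%, and the other 8 between 30.1% and 39.7%. At chr10:4712701-4712800 the liver libraries ran from 24.0 to 69.4% (SD 15.5 points). Whether these libraries came from one gender was not tested, because the columns name no mouse.

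**Figure D3:**
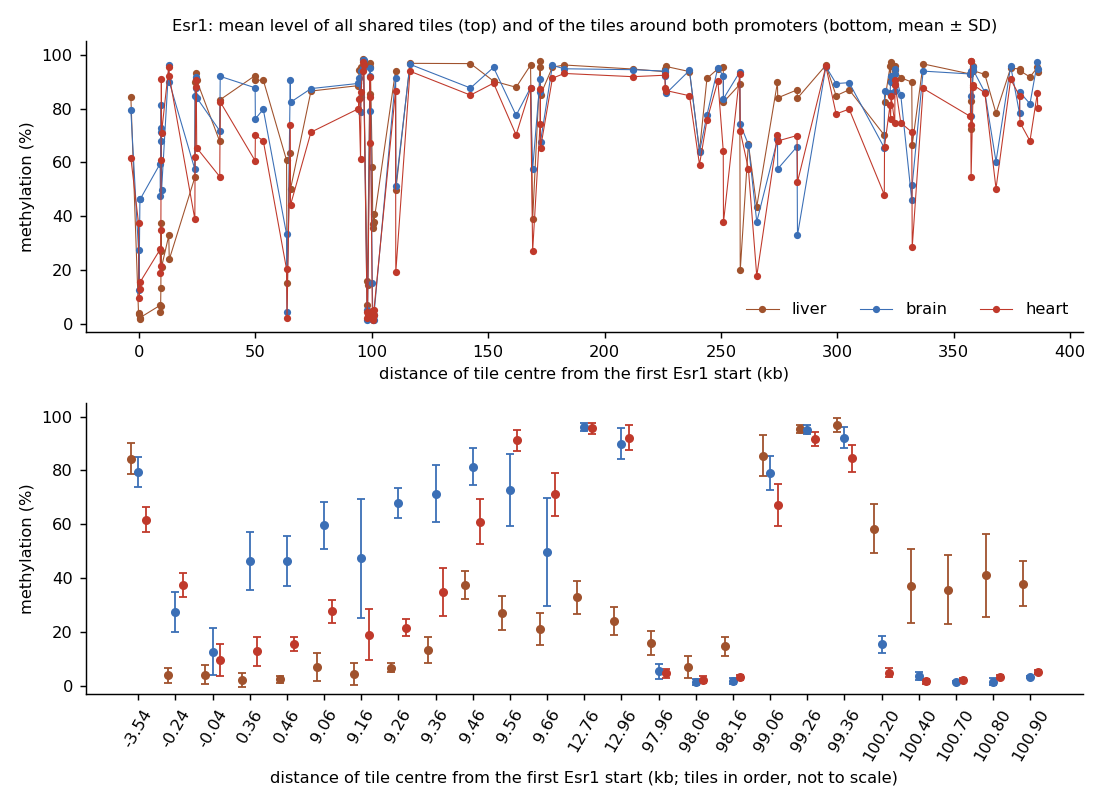
Methylation in percent along Esr1 by distance of the tile centre from the first start in kb, for liver, brain and heart: mean of all 107 shared tiles (top), and mean with SD for the tiles around the distal and proximal promoters (bottom, in order and not to scale). At the tiles measured, liver is lowest from the distal promoter to 12.96 kb and highest from 97.96 to 98.16 kb and from 100.20 to 100.90 kb.

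**Figure D4:**
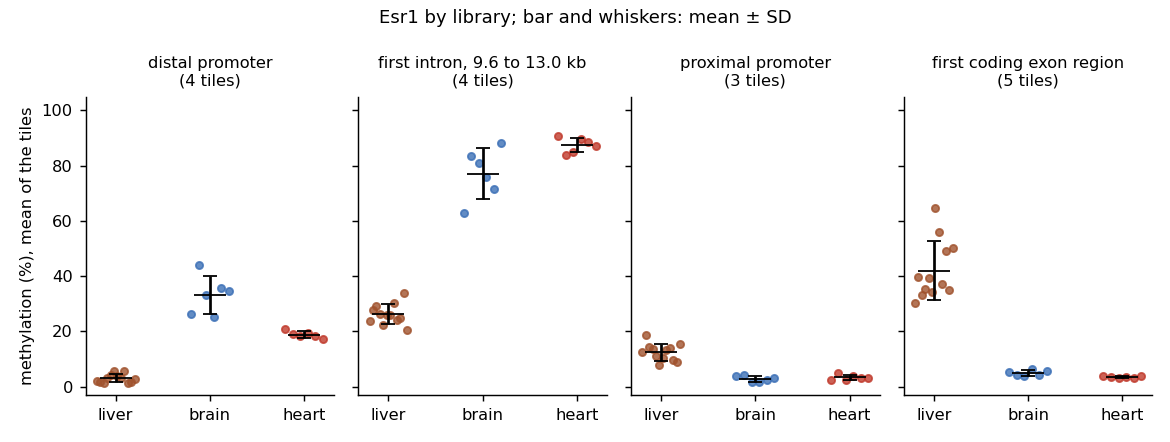
Mean methylation in percent over the tiles of 4 Esr1 regions, one point per library (12 liver, 6 brain, 6 heart), with mean and SD. Liver lies below brain and heart in the first 2 regions and above them in the last 2, without overlap.

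Elsewhere in Esr1 single intron tiles differed in either direction. At chr10:4870201-4870300, 258.3 kb into the gene, liver libraries ran from 16.0% over 19.7% to 23.9%, brain libraries from 65.7% over 75.4% to 78.5% and heart libraries from 69.2% over 71.2% to 75%. Liver was lower than brain by 54.4 ± 1.66 points there (limma, adjusted p = 1.27e-17). In the opposite direction, chr10:4894801-4894900 was at 83.9% in liver, 33.0% in brain and 52.8% in heart, and chr10:4675301-4675400 at 60.8%, 33.3% and 20.3%. Heart alone was low at chr10:4863001-4863100, with libraries from 25.7% over 38.0% to 44.0%, against 77.5 to 87.6% in liver and 78.9 to 87.4% in brain. Brain exceeded heart by 46.0 ± 2.48 points at that tile (limma, adjusted p = 2.05e-12). The one member tile called higher in heart than in brain, chr10:4943901-4944000, stood at 46.0% in brain, 71.3% in heart and 89.9% in liver.

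Esr2 had an unmethylated promoter in the 3 tissues. It is shown because it is the promoter of the second oestrogen receptor and, unlike the distal promoter of Esr1, held no called tile. The strand is minus, and its 300 bases hold 14 CpGs.
Esr2 promoter, chr12:76177210-76177509: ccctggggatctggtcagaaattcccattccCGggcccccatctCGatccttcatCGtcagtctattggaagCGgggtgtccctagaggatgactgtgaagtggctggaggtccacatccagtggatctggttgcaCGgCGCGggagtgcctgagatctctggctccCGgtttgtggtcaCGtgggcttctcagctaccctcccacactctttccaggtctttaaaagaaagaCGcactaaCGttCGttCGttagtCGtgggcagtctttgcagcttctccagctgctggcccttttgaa

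The 7 Esr2 promoter tiles averaged 3.71 to 7.23% in the liver libraries, 2.94 to 5.13% in brain and 1.99 to 3.39% in heart. Averaged over the 3 tissues, the highest, chr12:76176801-76176900, was at 12.3%, 14.1% and 11.1% in liver, brain and heart, and the lowest, chr12:76177301-76177400, at 2.07%, 0.58% and 0.45%. None of the 7 was called by limma, and at an unadjusted p under 0.05, 2, 4 and 0 differed for liver against brain, liver against heart and brain against heart. Upstream of it, at chr12:76178501-76178600, the level was 82.5%, 84.5% and 76.7%.

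In the body of Esr2 a pair of intron tiles was lower in liver than in heart, chr12:76128901-76129000 and the next. In the first, liver libraries ran from 29.2% over 48.9% to 65.7%, brain libraries from 57.1% over 70.6% to 90.9% and heart libraries from 68.0% over 77.8% to 85.4%. Liver and heart did not overlap, whereas liver and brain did. Liver was lower than heart by 28.1 ± 5.32 points (limma, adjusted p = 0.00012). It was lower than brain by 24.1 ± 5.32 points (adjusted p = 0.00074), just under the size needed for a call, and reached a call, at 25.3 to 27.4 points, without liver library 4 or 9 or without brain library 1, 3 or 5. The largest difference between brain and heart was at chr12:76176201-76176300, 1.01 kb after the start, with 68.1% in brain, 40.8% in heart and 64.4% in liver. Brain exceeded heart there by 27.3 ± 3.72 points (limma, adjusted p = 2.66e-06), or by 24.3 points with the median shift subtracted, which is no longer a call.

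Pgr was unmethylated over its first exon in all tissues. Its 15 shared tiles from chr9:8900101 to 8902000, which cover noncoding and coding sequence of that exon, had means of 1.26 to 3.64% in liver, 0.60 to 3.07% in brain and 0.67 to 2.85% in heart. Averaged over the 3 tissues, the highest promoter tile was chr9:8900101-8900200. It was at 3.64%, 3.07% and 2.85%, with 1 liver library at 16.7%. The lowest by that average, chr9:8900301-8900400, was at 1.26%, 1.07% and 0.98%. The shared tiles begin 1.25 kb after the first RefSeq start, so the bases before it were not measured.

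The 7 intron tiles of Pgr were mostly methylated, and the last of them was not. At chr9:8944901-8945000 liver libraries ran from 3.7% over 14.4% to 24.6%, brain libraries from 25% over 31.2% to 42.9% and heart libraries from 0 over 7.0% to 12.5%. Brain lay above both other tissues without overlap, by 17.8 ± 3.15 points over liver (limma, adjusted p = 6.20e-05) and by 24.8 ± 3.64 points over heart (adjusted p = 7.43e-06). The neighbouring chr9:8944801-8944900 was at 69.8% in liver, 63.5% in brain and 45.5% in heart, and liver exceeded heart by 24.3 ± 4.03 points (limma, adjusted p = 2.41e-05). Neither difference reached 25 points, so no Pgr tile was called. The first was called at 25.1 to 26.1 points over heart without brain library 1, 5 or 6 or heart library 2 or 6, and the second at 25.2 to 26.0 points without liver library 3 or 4 or heart library 1 or 6. By limma at an unadjusted p under 0.05, 8, 7 and 6 of the 22 Pgr tiles differed for liver against brain, liver against heart and brain against heart.

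Nr3c2, the mineralocorticoid receptor gene, had the lowest promoter mean of the 5 genes in each tissue when all RefSeq starts were averaged. The main group of Nr3c1 starts alone was lower, at 1.07%, 0.61% and 0.68% in liver, brain and heart. The called tiles of Nr3c2 lay in introns. For liver against brain, liver against heart and brain against heart 8.2%, 9.3% and 7.2% of its tiles were called, shares below those of all tiles given above. The promoter at the curated start and the intron tiles with the largest liver and heart differences are shown, plus strand. These intron tiles are not typical of the gene, since 15 of its 97 tiles were called in any pair. The promoter holds 17 CpGs in 300 bases.
Nr3c2 promoter, chr8:76902080-76902379: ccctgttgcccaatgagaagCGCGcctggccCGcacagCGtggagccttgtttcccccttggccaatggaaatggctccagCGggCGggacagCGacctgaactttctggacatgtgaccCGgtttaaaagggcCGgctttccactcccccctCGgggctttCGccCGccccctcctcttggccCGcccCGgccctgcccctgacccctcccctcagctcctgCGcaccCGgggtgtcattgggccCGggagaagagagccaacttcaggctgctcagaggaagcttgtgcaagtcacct
Nr3c2 intron tile, low in liver, chr8:76933201-76933300: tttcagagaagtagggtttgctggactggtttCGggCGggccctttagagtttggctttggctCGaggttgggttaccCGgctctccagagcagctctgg
Nr3c2 intron tile, low in heart, chr8:77116101-77116200: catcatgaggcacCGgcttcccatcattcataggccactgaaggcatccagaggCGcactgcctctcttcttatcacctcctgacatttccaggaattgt

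The 14 Nr3c2 promoter tiles averaged 0.83 to 4.09% in liver libraries, 0.79 to 1.45% in brain and 0.92 to 1.60% in heart. Averaged over the 3 tissues, the highest tile, chr8:76901201-76901300, was at 3.83%, 1.95% and 2.53%, and the lowest, chr8:76901701-76901800, at 0.57%, 0.77% and 0.35%. The groups overlapped at both. Most of the 14 lie ahead of the curated start, chr8:76902330, and they cover only the first bases of the promoter printed above. Tiles over its other bases were each missing from at least 1 tissue. The one at chr8:76902101 was at 2.28% in liver and 0.72% in brain. That at chr8:76902201 was at 0.6% in brain, and that at chr8:76902301 at 0 in brain and 0.67% in heart. The first start, chr8:76898083, had no promoter tile. All 15 of the tiles called in the gene were intronic.

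At chr8:76933201-76933300, 35.17 kb into Nr3c2, liver libraries ran from 15.7% over 26.1% to 39.7%, brain libraries from 61.4% over 82.6% to 86.2% and heart libraries from 69.7% over 77.9% to 97.6%. Liver did not overlap the others and was lower by 51.3 ± 4.05 points than brain (limma, adjusted p = 2.53e-10) and by 54.1 ± 4.05 points than heart (adjusted p = 1.02e-10). At chr8:77128101-77128200 liver was also lowest, with 26.3% against 64.6% and 57.4%. The opposite held at chr8:77189501-77189600, where liver libraries ran from 86.2 to 98.1%, brain libraries from 37.7 to 65.2% and heart libraries from 46.2 to 69.6%. Liver exceeded brain there by 41.7 ± 3.49 points (limma, adjusted p = 7.04e-10).

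Heart was low in a region 218 kb into the gene. At chr8:77116101-77116200 heart libraries ran from 23.1% over 29.0% to 37.7%, liver libraries from 56.5% over 78.4% to 100% and brain libraries from 66.2% over 73.0% to 89.8%. Heart lay below both without overlap, by 49.0 ± 4.67 points against liver (limma, adjusted p = 6.24e-09) and by 46.6 ± 5.39 points against brain (adjusted p = 2.72e-07). Further on, at chr8:77120801-77120900 and the next tile, brain was highest, with a mean of 41.5% ± 11.4 over both tiles against 11.3% ± 2.22 in liver and 23.5% ± 3.27 in heart. Likewise at chr8:77122401-77122500 brain was at 57.0%, liver at 14.5% and heart at 26.6%. Brain libraries varied most at these tiles, from 28.8 to 57.4% over the first 2.

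Nr3c1 lies on chromosome 18, minus strand, and had one methylated and one unmethylated promoter region. Its most distal start, at chr18:39519421, was covered by 1 tile, chr18:39519401-39519500, with 81.9% ± 5.87 in liver, 78.9% ± 6.76 in brain and 80.3% ± 2.73 in heart. The main group of starts, 27504 to 30152 bp further on, was covered by 14 tiles that averaged 1.07% ± 0.57, 0.61% ± 0.12 and 0.68% ± 0.42. These tiles hold up to 19 CpGs. The lowest averaged over the 3 tissues, chr18:39489001-39489100, was at 0.81% in liver and 0.27% in heart, and listed at 0 in each brain library. None of the 15 promoter tiles was called by limma in any pair, nor did any differ at an unadjusted p under 0.05.

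Behind this promoter levels were low to intermediate. The 6 tiles from chr18:39485201 to 39486800, in the intron and the coding exon that follow, had means of 3.49 to 17.6% in liver, 16.3 to 30.9% in brain and 7.18 to 30.2% in heart. In brain they varied between libraries, with the highest library of each tile at 32.3 to 50%. The Nr3c1 body mean in brain ran from 44.7% over 49.3% to 61.6%, and the difference between liver and brain was -8.66 ± 1.57 points (limma, adjusted p = 3.64e-05), or -6.47 points (adjusted p = 1.03e-05) without the highest brain library.

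The called tiles of Nr3c1 were both in one intron. At chr18:39467701-39467800, 51.67 kb after the first start, liver libraries ran from 17.2% over 24.9% to 40.0%, brain libraries from 57.5% over 62.5% to 77.9% and heart libraries from 71.2% over 71.8% to 74.5%. Liver was separate from both other tissues. It was lower than brain by 37.3 ± 3.17 points (limma, adjusted p = 9.32e-10) and lower than heart by 44.8 ± 3.17 points (adjusted p = 3.83e-11). The next tile, chr18:39467801-39467900, was at 39.3%, 53.8% and 65.1%, and was called for liver against heart. The largest brain and heart difference, at chr18:39524301-39524400, 4.93 kb before the first start, was 83.4% against 61.4% and was not called, at 22.0 ± 5.52 points (limma, adjusted p = 0.0024). It reached 26.5 points, a call, without brain library 5.

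**Figure D5:**
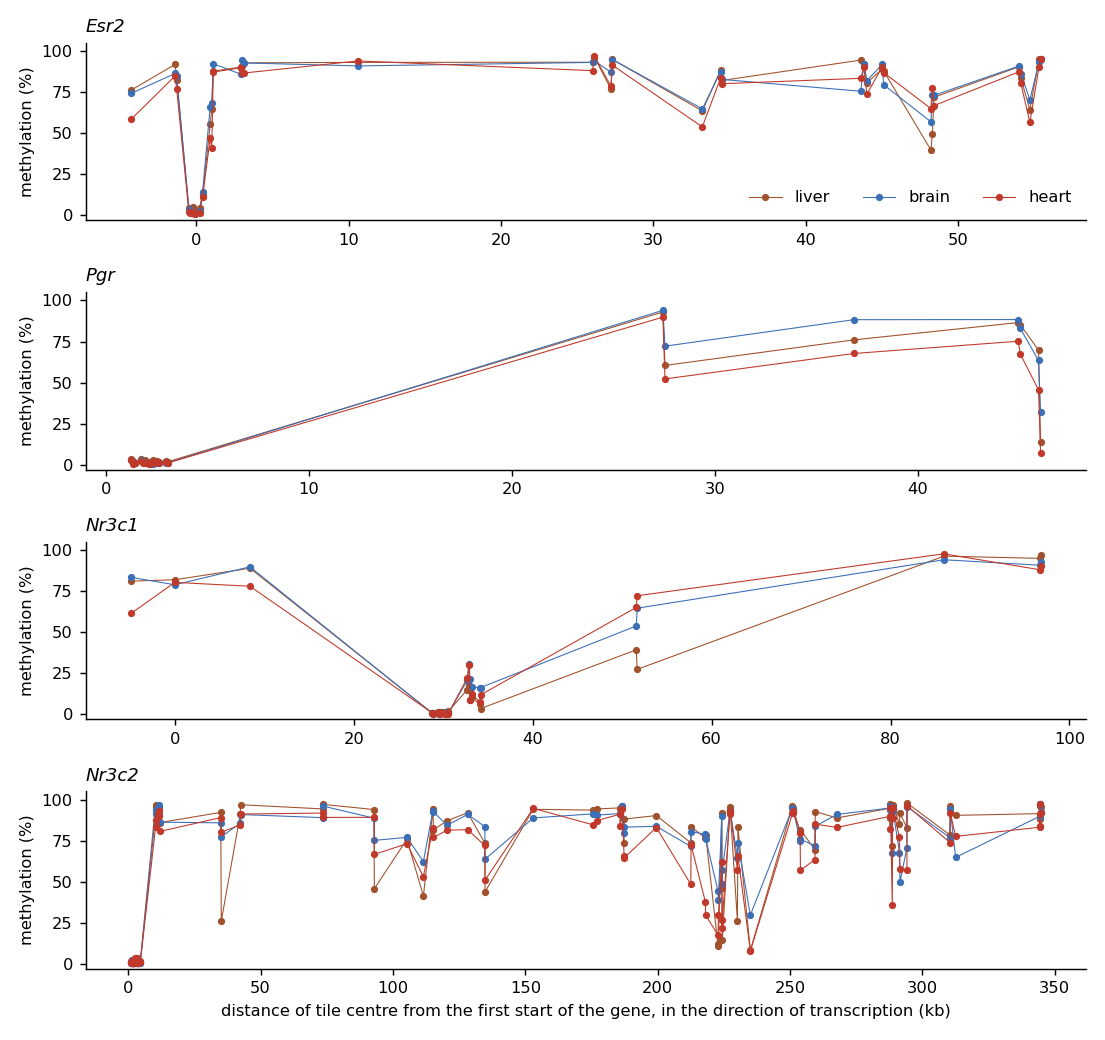
Mean methylation in percent of the shared tiles of Esr2, Pgr, Nr3c1 and Nr3c2 in liver, brain and heart, by distance of the tile centre from the first start in kb, in the direction of transcription. Levels fall below 15% at the promoters of each gene in the 3 tissues, except at the distal start of Nr3c1, and tissues part mainly in introns.

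The tiles of the genes had the base composition of the tables. They held 2 CpGs at the median, as did all tiles, and 12% held 7 or more against 10.8% of all tiles. The 35 members with 7 or more CpGs had median levels of 1.4%, 0.8% and 1.0% in liver, brain and heart, and all such tiles 1.4%, 0.9% and 1.1%. Tiles of this kind were 2.7% of those in Esr2, 4.7% in Esr1, 12.4% in Nr3c2, 27.3% in Pgr and 39.3% in Nr3c1. The letters CCGG, which read the same on both strands and are the cut site of MspI, the usual RRBS enzyme, were found in 55.3% of member tiles and 58.1% of all tiles.

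The genes whose levels were most like each receptor gene were sought among 8614 genes, by the root mean square difference over 6 values (promoter and body means in the 3 tissues). For Esr1 these were Adcy4 (1.91 points), Dlgap2 (2.0) and P2ry6 (2.03). For Esr2 they were Tcn2 (0.80 points), Dnah7a (1.09) and Lpcat2 (1.11), and for Pgr Ptger4 (0.68 points), Scrt2 (0.72) and Foxl2os (0.73). For Nr3c1 they were Rnf114 (1.71 points), Alx4 (2.27) and Hhipl1 (2.32), and for Nr3c2 Erbb4 (0.44 points), Ephb1 (0.54) and Slc26a6 (0.56). Esr1 and Nr3c1 had the more distant neighbours.

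Promoters of the genes that act with the receptors were measured in 5 lists, where the median of all promoters differed by 0.37, 0.64 and 0.07 points for liver against brain, liver against heart and brain against heart. Of all promoters 13.8%, 15.7% and 14.2% were called in these pairs, and 51.8%, 52.4% and 41.6% had an unadjusted p under 0.05 (limma). Of the 8 chaperones, which hold the receptors ready to bind hormone, none was called, with medians of 0.37, 0.03 and -0.22 points, and 1, 1 and 3 had an unadjusted p under 0.05 (limma). Stip1 and Fkbp4, cochaperones of Hsp90, moved most, to 2.77 points between liver and heart and 2.12 points between brain and heart. Of the 10 coregulators none was called, with medians of 0.31, 0.06 and -0.25 points, and 3, 2 and 2 had an unadjusted p under 0.05 (limma). Differences in the list had both signs. The coactivator gene Ncoa3 was at 6.65% in liver, 14.1% in brain and 14.5% in heart. Of the related and membrane receptors (6 of 7 measured) none was called, with medians of 0.42, 0.27 and -0.14 points, and 2, 3 and 3 had an unadjusted p under 0.05 (limma). Among them Esrrb, an oestrogen-related receptor gene, was 9.09 points higher in brain than in heart, and Paqr7, a membrane progestin receptor gene, 5.36 points lower.

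Calls were seen in the other lists, against 13.8%, 15.7% and 14.2% of all promoters in the same pairs. Of the genes of steroid metabolism and transport 5 of 16 had promoter tiles in all tables, with medians of -1.25, 5.54 and 1.78 points. By limma 4, 3 and 3 of them had an unadjusted p under 0.05. None was called against liver, and 2 were called higher in brain than in heart. These were Cyp11a1, the enzyme that starts steroid synthesis from cholesterol, at 34.7% against 19.5% (limma, adjusted p = 1.12e-08), and Cyp19a1, the aromatase that makes oestrogens, at 87.1% against 74.1% (adjusted p = 2.76e-07). Of the receptor targets (9 of 10 measured) 3, 3 and 1 were called, with medians of -0.04, 0.19 and 0.21 points, and 7, 5 and 3 had an unadjusted p under 0.05 (limma). Pck1, a glucocorticoid-induced enzyme of gluconeogenesis, was at 19.4% ± 4.82 in liver, 83.6% ± 4.72 in brain and 60% ± 7.33 in heart, and was lower in liver than in brain by 64.3 points (limma, adjusted p = 2.04e-15). Scnn1a, a subunit of the epithelial sodium channel, was higher in liver, with 43.6% against 17.4% and 15.0%.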

How the data were processed

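DNA methylation was measured by enhanced RRBS in 24 libraries of liver, brain and heart. A sequencing service made and mapped the libraries. The submitters' processing notes name Bismark, methylKit and mm10. The authors joined CpGs into 100 bp tiles, kept tiles above 10 reads in every replicate and deposited a methylation fraction (0 to 1) per tile and library, without counts, so the depth behind each value is unknown and no interval for it is given. Here fractions were multiplied to percent. Columns match no mouse or gender and were grouped by the tissue of their table. Tiles were joined to RefSeq genes on GRCm38.p6, whose primary chromosomes are those of mm10: 99.8 to 99.9% of tiles held a CpG, against 54.9 to 55.1% when moved by 100000 bp. RefSeq promoter sequences were found for 4 of the 5 genes, and not for Nr3c1.

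The 3 tissue pairs were fitted with limma 3.58.1 (R 4.3.3) over all tiles, promoter means and body means, with Benjamini-Hochberg adjustment. The steps were tested on simulated data. P-values take libraries as independent, although several mice gave more than 1 tissue, and measure only the spread between these libraries. Alternatives were another scale, size threshold, promoter window, tile weight, transcript set, moderation and tile set, only the tissues compared, each library left out and the median shift subtracted. Named were, per gene, the tile with the largest difference in each pair and the promoter tile highest and lowest in the mean of the 3 tissues, runs of neighbouring called tiles, the 3 genes of most like levels (at least 3 promoter and 10 body tiles) and the 2 genes per list with the largest promoter difference. One list gene that this rule names is not reported here. Further tiles were named after their values were seen. Members and lists were chosen with earlier results of these data known.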

Additional observations from a re-analysis of the deposited data

Results flagged for a closer look

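In brain and heart, with 6 libraries each, 59 sets of values (promoter and body means and named tiles) were searched for a library that stands apart from its group by Dixon's test at its 95% critical value. This met 6 sets, and chance alone flags about 1 in 20. In brain, 1 library had the lowest Nr3c1 promoter mean, 4.87% against 5.87 to 6.26% in the others, 1 the lowest Nr3c2 body mean, 68.7% against 71.3 to 72.8%, and 1 the highest level at the Nr3c2 promoter tile chr8:76901701-76901800, 2.9% against 0 to 1.0%. In heart, 1 library was lowest at the Esr1 tile chr10:4624901-4625000, 83.3% against 91.8 to 96.3%, 1 highest at the Esr1 promoter tile chr10:4710001-4710100, 4.7% against 1.2 to 2.2%, and 1 highest at the Esr2 promoter tile chr12:76177301-76177400, 1.9% against 0 to 0.5%. The 12 liver libraries were not searched.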

How the results depend on the processing

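Counts of called member tiles (32, 35 and 21 for liver against brain, liver against heart and brain against heart) moved with the size threshold, to 69, 101 and 77 at 10 points and to 20, 16 and 6 at 35 points. With 1 library left out they were 29 to 34, 33 to 38 and 20 to 22. With the median shift subtracted, an alternative chosen after seeing the data, 17 tiles were higher in liver and 14 in heart, and 15 in brain and 1 in heart. Over all tiles, the share of brain and heart calls that were higher in brain went from 81.5% to 71.4%. No promoter mean was called as reported, and 1 was (Esr1) for liver against brain with curated transcripts only, for liver against heart at 5 points, with tiles weighted by CpGs (11.3 points) and with 2000 and 1000 bp windows (11.1 points), and for brain against heart at 5 points. Body calls rose from 0 to 1, 3 and 3 at 5 points, and to 1 for liver against heart (Nr3c1) with the shift subtracted. With each library left out, promoter and body calls stayed at 0. The window of 500 and 200 bp left 4 of the 5 promoters. The other alternatives (logit scale, trended and robust moderation, only the tissues compared, tiles in both tables) left each count within 1.5 times its value. No called result reversed. The Esr1 promoter difference between liver and heart, not called as reported, changed sign with curated transcripts only.

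No paired analysis was possible because the columns carry no mouse number, so the fit with a replicate block was not run. The coverage minimum was not varied, since the tables hold no coverage.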
